A study of Homo sapiens with 12 samples.

Results

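The genes described here are 37 interferon-stimulated and MHC class I genes. They were taken by name from the 25369 genes of the count table, and all 37 were found there. They were sorted by role into 9 groups, namely IFIT proteins, OAS enzymes, antiviral effectors, IFITM proteins, RNA sensors, transcription factors, the ISG15 system with PARP9 and DTX3L, MHC class I chains, and peptide loading genes. The data were poly(A)+ RNA-seq counts from 3 established human cancer cell lines. RKO is a colon carcinoma line, A549 a lung adenocarcinoma line and H460 a large cell lung carcinoma line. Each line was kept in normoxia or in 1% O2 for 24 h, with 2 libraries per condition, which gave 6 groups and 12 libraries. RKO and A549 grew in DMEM and H460 in RPMI. Line and tissue cannot be told apart between RKO and A549, line and medium between A549 and H460, and all of these between RKO and H460. The labels name no added interferon in any group. Per the study's methods, the 2 libraries of a group were independent biological duplicates. In bulk RNA, fewer expressing cells and less RNA per cell cannot be told apart.

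Type I interferons bind the receptor pair IFNAR1 and IFNAR2, which activates the kinases JAK1 and TYK2. These kinases act on STAT proteins, among them STAT2, which joins IRF9 in ISGF3, a complex that binds the interferon-stimulated response element (ISRE) in promoters. The genes switched on in this way make proteins that bind, degrade or block viral RNA and virus particles. MHC class I molecules present peptides from inside the cell to T cells, and the transporter TAP1-TAP2 and its partner tapasin load those peptides.

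The libraries held 27350424 to 41757584 counted reads. The hypoxia markers CA9, NDRG1, VEGFA, PDK1 and SLC2A1, which are known targets of the hypoxia-inducible factors, rose in each line (5 of 5 in RKO, A549 and H460). NDRG1 stood at 675 and 1761 CPM in the 2 A549 hypoxia libraries, so replicate 1 of that group was well below replicate 2. Of the defining leukocyte markers, PTPRC and CD3E stayed between 0 and 0.104 CPM in every library. The whole list of 6 leukocyte markers summed to 433 to 476 CPM in RKO normoxia and 568 to 638 CPM in RKO hypoxia, nearly all of it CD68. In A549 the sums were 118 to 164 and 142 to 151 CPM, and in H460 29.5 to 35.2 and 46.6 to 59.3 CPM. In H460, CD68 was called higher and CD14 lower. Of 4 fibroblast and 3 endothelial markers, COL1A1 was called higher in RKO and A549 and VWF in RKO, where it stayed at or under 0.517 CPM. In A549 nearly all of the fibroblast list was COL1A1, at 47.0 and 83.3 CPM in normoxia and 129.5 and 429 CPM in hypoxia. The whole list summed to 0.502 to 2.21 CPM in RKO and 22.3 to 35.0 CPM in H460. DCN, COL1A2, PECAM1 and CDH5 did not exceed 0.197 CPM in any library. The part of these markers in the results was not tested. Of the epithelial markers, KRT8 stood at 1773 and 1457 CPM in normoxic A549, 778 and 709.7 CPM in H460 and 8.26 and 8.08 CPM in RKO. RKO had 183 and 171 CPM of KRT18 in normoxia but only 0.106 and 0.0502 CPM of CDH1, the E-cadherin gene. KRT18 fell in RKO (log2 change -1.05) and KRT19 rose in H460 (1.22).

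Promoters are shown for 4 of the genes because they stand at the extremes of what follows. ISG20 rose in 2 lines, TAP2 fell in those lines, IFI44L had no read in normoxic RKO cells, and BST2 had the highest mean RPKM of the genes in those cells. The stretches hold the 180 bases before the gene start given by RefSeq (build GRCh38.p14) and are written 5′ to 3′ on the gene's strand. Capitals mark GAAANNGAAA, the core of the ISRE. In ISG20 they also mark a palindrome that holds ACGTG, a form of the core of the hypoxia response element, on both strands. ISG20 lies at chr15:88638836-88639015 (plus strand), TAP2 at chr6:32838740-32838919 (minus strand), IFI44L at chr1:78620268-78620447 (plus strand) and BST2 at chr19:17405631-17405810 (minus strand).
ISG20: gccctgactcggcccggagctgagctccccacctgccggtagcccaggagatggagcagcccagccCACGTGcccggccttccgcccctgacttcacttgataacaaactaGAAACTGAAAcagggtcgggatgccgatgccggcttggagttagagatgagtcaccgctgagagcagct
TAP2: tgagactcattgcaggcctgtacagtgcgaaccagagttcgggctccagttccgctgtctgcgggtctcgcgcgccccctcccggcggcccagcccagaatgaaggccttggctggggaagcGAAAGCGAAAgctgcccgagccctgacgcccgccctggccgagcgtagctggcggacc
IFI44L: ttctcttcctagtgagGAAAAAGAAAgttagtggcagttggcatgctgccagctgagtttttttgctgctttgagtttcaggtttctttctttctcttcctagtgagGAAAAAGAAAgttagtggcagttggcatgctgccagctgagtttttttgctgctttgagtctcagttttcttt
BST2: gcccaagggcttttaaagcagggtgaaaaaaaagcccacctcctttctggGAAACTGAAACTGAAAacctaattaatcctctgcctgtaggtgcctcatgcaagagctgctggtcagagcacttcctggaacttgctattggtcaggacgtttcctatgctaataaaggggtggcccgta
The windows searched ran from 250 bases before to 50 bases after the start, on both strands, and 30 of the 37 genes had one. GAAANNGAAA was found in 20 of these 30 windows (66.7%), against 3.65% of all 27305 promoter windows. TTCNNNGAA, the core of the gamma-activated site, was found in 8 of the 30 (26.7%), against 7.88% of all windows. ACGTG was found in 5 of the 30 (16.7%), against 21.6% of all windows. The 5 were ISG20, IFI6, IRF1, IRF9 and ISG15. TAP2 and TAP1, whose hypoxia changes in RKO and H460 had opposite signs, both held the ISRE core, as did BST2 and IFI44L, whose normoxic levels in RKO were at opposite ends. The matches are letters only, and their part in these changes and levels was not tested. GAAANNGAAA can overlap itself, as it does in BST2.

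In normoxia the lines differed widely in these genes, and no line was highest throughout. By mean CPM (counts scaled to library depth by TMM over the 12 libraries), RKO was highest for 13 genes, A549 for 15 and H460 for 9. The test of the baseline used edgeR, and a gene was called when its adjusted p was under 0.1 and its fold over 1.5. Between RKO and A549, 11 genes (29.7%) were higher and 16 (43.2%) lower in RKO, where 26% and 34.1% of all genes tested were called in those directions. Between RKO and H460, 13 (35.1%) were higher and 12 (32.4%) lower in RKO, against 27.2% and 34.7% of all genes. Between A549 and H460, 16 (43.2%) were higher and 9 (24.3%) lower in A549, against 26.9% and 25.2%. The excess over the share of all genes was largest for genes higher in A549 than in H460. All 3 pairs were called for 11 genes, OAS1, OAS2, OASL, IFI6, BST2, IFIH1, IRF1, IRF9, ISG15, HERC6 and TAP2. This gives a full order of the lines, apart from OASL, whose order of RKO and H460 rests on 0 and 7 reads. OAS2 had only 4 reads in normoxic RKO. Both genes were too low to be tested within RKO, and OASL also within H460. The share of all genes called for all 3 pairs was not computed.

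**Figure D1:**
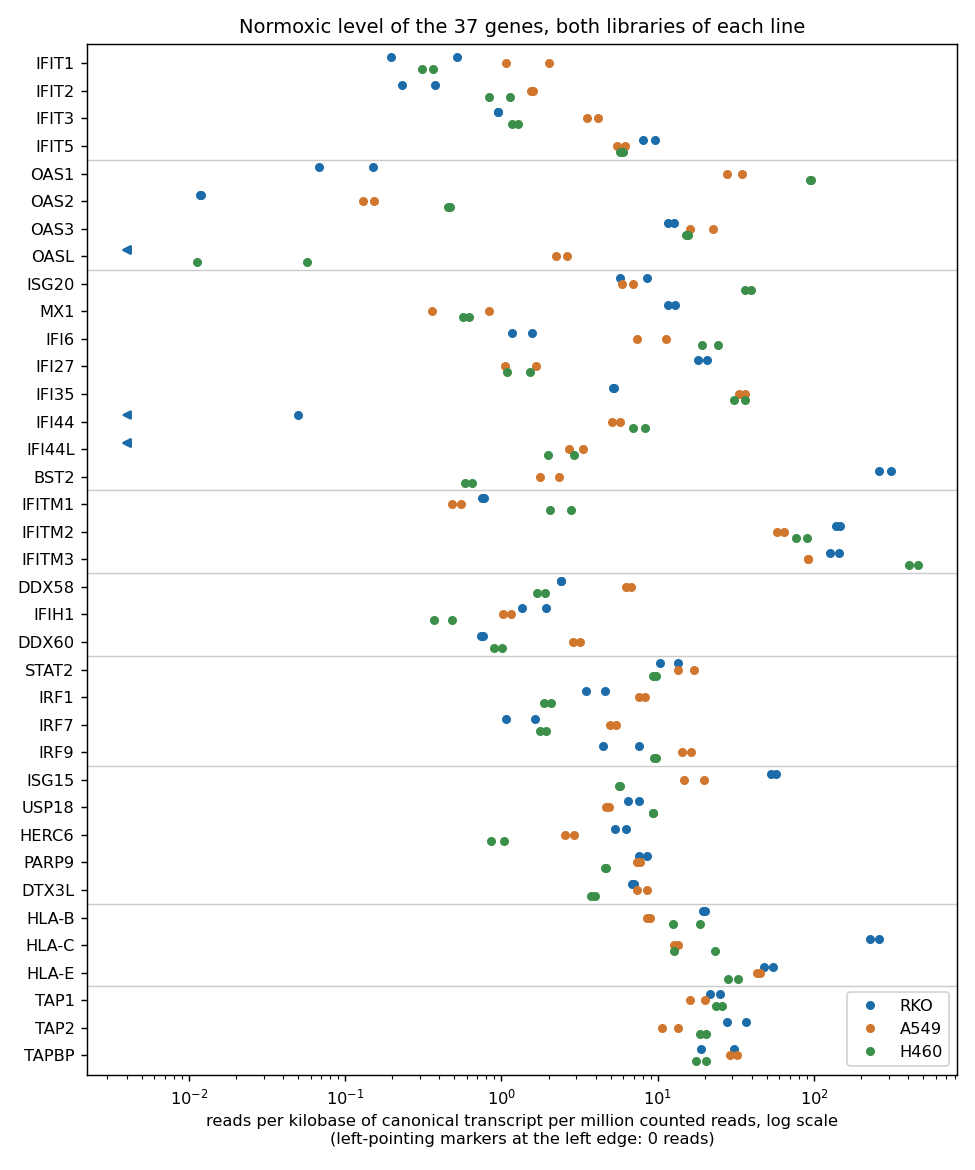
Normoxic level of each gene in both libraries of RKO, A549 and H460, as RPKM computed with the canonical transcript length, on a log axis, with grey lines between the role groups. Left-pointing markers at the left edge are libraries with 0 reads, as for OASL and IFI44L in RKO, while BST2 and HLA-C lie far to the right in RKO only.

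Normoxic RKO cells almost lacked one set of interferon-stimulated genes. IFI44L, an interferon-induced protein of the IFI44 family, had 0 reads in both normoxic RKO libraries, against 15.1 and 18.1 CPM in A549 and 11.2 and 16.2 CPM in H460. With a floor of 3 counts over the group, its level in RKO was at least 429-fold lower than in A549 and at least 360-fold lower than in H460. OASL, an OAS-like protein without synthetase activity, also had 0 reads in RKO, against 8.17 and 6.87 CPM in A549, a level at least 194-fold lower. H460 had 0.0355 and 0.176 CPM of OASL, so A549 alone expressed it at more than trace level. IFI44 had 3 reads in 1 normoxic RKO library and 0 in the other, against 9.22 and 7.99 CPM in A549 and 11.4 and 13.2 CPM in H460. The ratio of A549 to RKO was 222 (95% exact counting interval 75.8 to 1081) and that of H460 to RKO was 320.0 (109 to 1555). Such intervals cover counting error only. Between A549 and H460 no difference in IFI44L or IFI44 passed the edgeR test (adjusted p = 0.316 and 0.115).

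OAS1, which makes the 2′-5′ oligoadenylates that activate RNase L, had few reads in RKO and many in the lung lines. It stood at 0.106 and 0.226 CPM in normoxic RKO, 54.2 and 42.6 CPM in A549 and 150.3 and 145 CPM in H460. The difference of RKO minus H460 was -9.76 ± 0.25 (SE, adjusted p = 6.18e-13) on the log2 scale, and A549 minus H460 was -1.61 ± 0.15 (SE, adjusted p = 4.87e-07). OAS2 kept the same order at a far lower level, from 0.0517 ± 0.00207 CPM (SD, n = 2) in RKO to 2.04 ± 0.0699 CPM in H460. OAS3, the largest of the synthetases, ran from 75.6 ± 2.33 CPM in RKO to 121 ± 29.4 CPM in A549. IFI6, a mitochondrial protein known to restrain cell death, and IFI35 were also called lower in RKO than in both lung lines. IFI6 had 1.22 and 0.878 CPM in RKO, 8.72 and 5.62 CPM in A549 and 19.0 and 14.8 CPM in H460.

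A second set was high in RKO. BST2, or tetherin, which holds budding virions at the cell surface, had 249.8 and 288 CPM in normoxic RKO, 2.24 and 1.67 CPM in A549 and 0.567 and 0.616 CPM in H460. RKO exceeded A549 by 7.10 ± 0.20 (SE, adjusted p = 1.11e-12) and H460 by 8.82 ± 0.23 (SE, adjusted p = 6.18e-13) on the log2 scale. MX1, a dynamin-like GTPase that traps viral nucleocapsids, had 32.1 ± 1.49 CPM in RKO, against 1.57 ± 0.870 CPM in A549 and 1.58 ± 0.121 CPM in H460, and the difference between the lung lines did not pass the edgeR test (adjusted p = 0.983). IFI27 was likewise called higher in RKO than in both lung lines, with 13.1 ± 1.57 CPM in RKO and 0.927 ± 0.305 CPM and 0.898 ± 0.234 CPM in A549 and H460. ISG15, the ubiquitin-like modifier, was graded, with 33.2 ± 2.45 CPM in RKO, 10.4 ± 2.21 CPM in A549 and 3.49 ± 0.0822 CPM in H460. HERC6 was graded in the same order.

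HLA-C, a classical MHC class I heavy chain, had 338 and 375 CPM in normoxic RKO, 19.9 and 18.5 CPM in A549 and 34.6 and 18.5 CPM in H460. RKO exceeded A549 by 4.21 ± 0.26 (SE, adjusted p = 2.34e-09) on the log2 scale, while A549 minus H460 was -0.46 ± 0.23 (SE, adjusted p = 0.0983), a fold under 1.5. For HLA-B, the difference between RKO and H460 did not pass the edgeR test (adjusted p = 0.175) and A549 was called lower than both. TAP2 was called between all lines, in the order RKO, H460, A549, with means of 170.3 ± 29.5 CPM, 106 ± 8.14 CPM and 64.4 ± 11.2 CPM. TAP1, its partner subunit, differed by at most 0.47 on the log2 scale and was called for no pair. The HLA chains share sequence, so their counts carry some uncertainty. Of the 50-base stretches, 2.08% of those of HLA-B, 3.75% of those of HLA-C and 1.08% of those of HLA-E occur in another of these transcripts. The HLA and TAP genes were also placed on alternative haplotype sequences, and the authors filtered low-quality mappings. Whether the lines lost reads of these genes to different degrees was not tested.

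Other members were highest in A549. DDX58 (RIG-I) had 27.7 and 29.2 CPM and DDX60 16.4 and 18.0 CPM in its normoxic libraries, and both were called higher in A549 than in either other line. IRF1 ran in the order A549, RKO, H460, with means of 26.9 ± 1.99 CPM, 13.5 ± 2.27 CPM and 6.71 ± 0.583 CPM. IRF9 ran in the order A549, H460, RKO. IFIT1 and IFIT3 were called higher in A549 than in the other lines, between which no call was made. IFITM3, which blocks fusion of virus with endosomes, was instead highest in H460, with 274 and 237 CPM against 73.5 and 81.8 in RKO and 53.8 and 52.6 in A549. IFITM2 ran from 55.6 and 60.8 CPM in A549 through 88.3 and 73.5 in H460 to 132 and 136 in RKO. IFITM genes share sequence, with 15.8% of the 50-base stretches of IFITM1, 5.33% of IFITM2 and 17.6% of IFITM3 found in another of them.

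Levels of different genes can be set side by side only per length. The deposited gene length of the 6 MHC genes was 5.92 to 9.37 times that of their canonical transcript, so their deposited RPKM is lower by that factor. Over the 224 genes also placed on alternative haplotype sequences the median of this quotient was 7.13, against 1.01 over all genes with a canonical transcript. With the canonical transcript length, chosen after this was seen, BST2 led in normoxic RKO at 286 ± 35.5 RPKM (SD, n = 2). HLA-C followed at 246 ± 23.5, where the deposited value was 34.3, and then IFITM2 at 142 ± 5.99. In A549 the highest were IFITM3 (92.0 ± 0.375), IFITM2 (61.2 ± 4.57) and HLA-E (44.4 ± 1.43). In H460 they were IFITM3 (435 ± 38.1), OAS1 (94.4 ± 0.858) and IFITM2 (83.7 ± 9.57). The 2 libraries of BST2 and of HLA-C overlapped in RKO (261 and 311 against 229 and 263), so their order there is not set beyond the spread. Nor is that of IFITM2 (137.5 and 146) and IFITM3 (126 and 145). The leading 3 genes of A549 and of H460 did not overlap. By deposited RPKM alone, IFITM3 took the place of HLA-C in RKO and IFI35 (32.7) that of HLA-E in A549.

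Hypoxia moved these genes in both directions, and differently in the 3 lines. In RKO, 7 of 32 tested genes rose and 2 fell, against 18.8% of all genes tested called higher and 15.1% lower. In H460, 12 of 36 rose and 9 fell, against 24.6% and 27.3%. In A549, the main, unpaired edgeR fit called 0 of 36 in either direction, against 2.22% and 0.456% of all genes. In that line 7 genes had an unadjusted p under 0.05 and DESeq2 called 1. The members' shares were 21.9% and 6.25% in RKO and 33.3% and 25% in H460. For RKO the members' median log2 change was 0.24, beside 0.01 over all genes. A549 had 0.14 beside -0.01, and H460 0.06 beside -0.04. Of the 37 genes, 24 were called in at least 1 line. Genes higher in both RKO and H460 were HLA-B, IRF7, ISG20, STAT2 and TAP1, and TAP2 was lower in both. No gene was called in opposite directions. The shares of all genes called in at least 1 line, or in both RKO and H460, were not computed. These counts therefore do not set the members apart from other genes. In H460 the split depends on the scaling. When only library size was used in place of TMM, the median gene shifted by -0.35 (log2) in that line. With that scaling, 7 genes were called higher and 14 lower: IFITM2, IRF7, OAS1, TAP1 and TAPBP were no longer called higher, and BST2, IFI44L, IFIT3, IFIT5 and ISG15 were called lower. Of all genes, 14.7% were then called higher and 40.9% lower in H460. OAS1, OAS2, OASL, IFI44 and IFI44L in RKO, IFITM1 in A549 and OASL in H460 were too low to be tested.

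**Figure D2:**
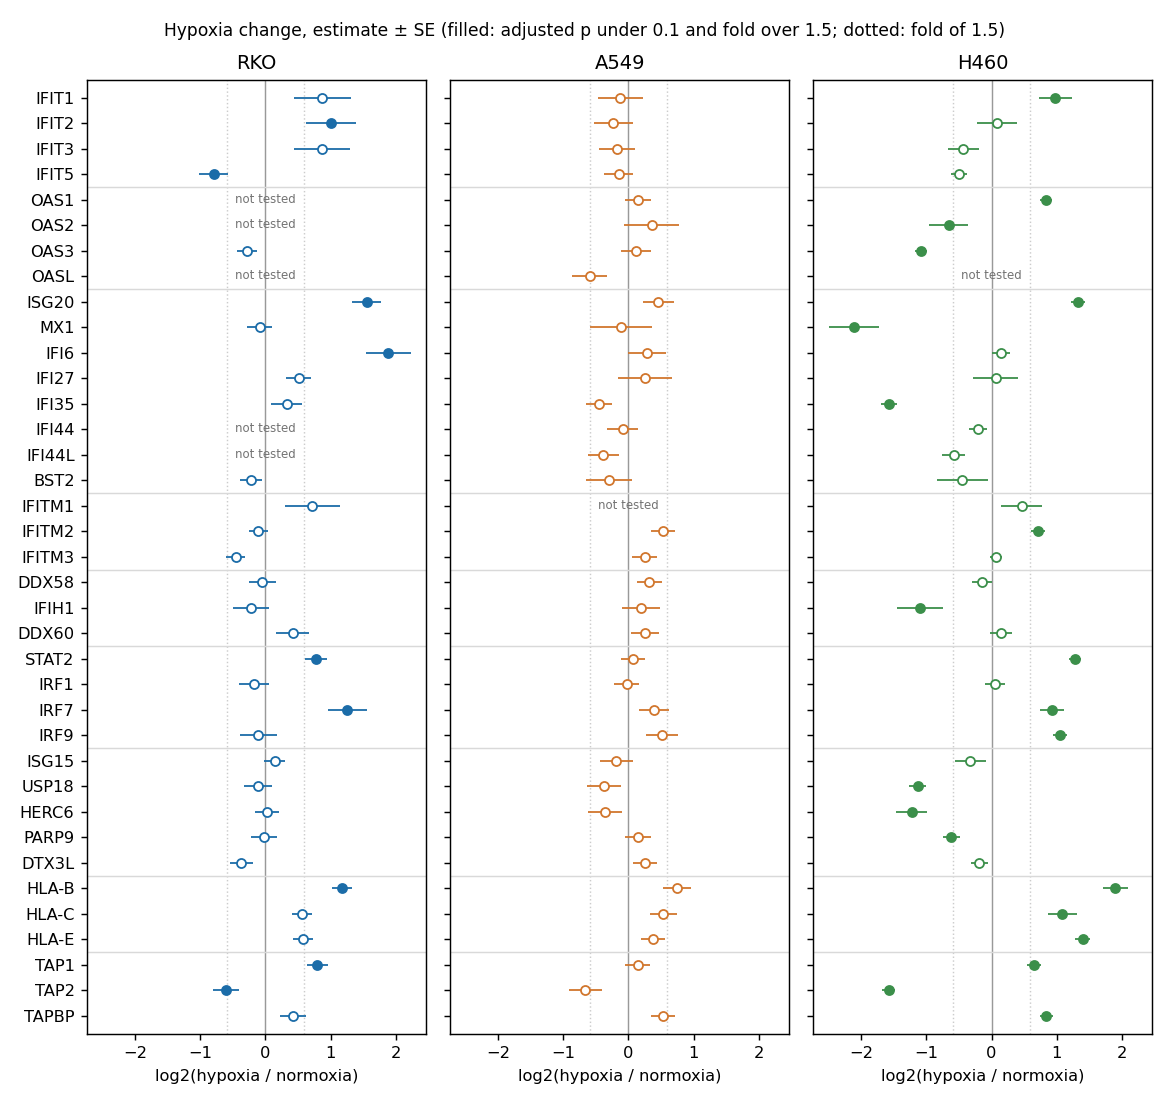
Log2 change in hypoxia against normoxia (x axis) of each gene in RKO, A549 and H460, as the edgeR estimate with its SE from 2 against 2 libraries, filled where called. HLA-B, HLA-C and HLA-E lie right of 0 in each line and TAP2 left of 0, whereas OAS3, MX1, IFI35, USP18 and HERC6 lie furthest to the left in H460.

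Among the interferon genes listed, all but IFNE were nearly silent. IFNA1 was the only interferon alpha gene on the list. Of 8 interferon genes, only IFNE, an epithelial type I interferon, passed the filter on low counts, and IFNB1, IFNA1, IFNK, IFNG, IFNL1, IFNL2 and IFNL3 stood between 0 and 0.0476 CPM in every library. IFNE had 2.27 and 2.78 CPM in normoxia and 1.43 and 1.77 CPM in hypoxia in H460, where it fell (log2 change -0.67 ± 0.26, adjusted p = 0.0342). In A549 it had 6.22 and 6.13 CPM in normoxia and 8.07 and 9.54 CPM in hypoxia and was not called. Of 6 receptor genes, 1 rose in RKO (16.7%, against 18.8% of all genes) and 2 in H460 (33.3%, against 24.6%), and none fell. IL10RB, a shared chain of the interferon lambda receptor, changed by 0.68 ± 0.16 (SE, adjusted p = 0.00756) in RKO. The interferon gamma receptor chains IFNGR2 and IFNGR1 changed by 0.99 and 0.60 in H460.

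Among the transcription factors, STAT2 and IRF7 rose in RKO and H460. STAT2, the ISGF3 subunit, had 43.6 and 54.9 CPM in normoxia and 81.2 and 94.2 CPM in hypoxia in RKO. In H460 it had 39.8 and 40.6 CPM in normoxia and 104 and 93.9 CPM in hypoxia. The conditions did not overlap in these lines, and the log2 changes were 0.77 ± 0.17 (SE, adjusted p = 0.00534) in RKO and 1.28 ± 0.09 (SE, adjusted p = 1.73e-07) in H460. In A549, where STAT2 had 57.0 and 70.6 CPM in normoxia and 61.9 and 73.5 CPM in hypoxia, the conditions overlapped and the change was 0.07 ± 0.19 (SE, adjusted p = 0.883). A549 minus H460 differed by -1.21 ± 0.23 (SE, adjusted p = 0.00181).

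IRF7, the factor that amplifies interferon alpha transcription, went from 1.97 and 2.91 to 6.55 and 5.65 CPM in RKO. In H460 it went from 3.62 and 3.22 to 6.96 and 6.15 CPM, and in A549 from 9.07 and 9.79 to 11.6 and 13.5 CPM. In all 3 lines both hypoxia libraries were above both normoxia libraries, and the log2 changes were 1.26 ± 0.30 (SE, adjusted p = 0.00733), 0.92 ± 0.18 (SE, adjusted p = 0.000696) and 0.40 ± 0.23 (SE, adjusted p = 0.431) in that order. IRF9, the DNA-binding subunit of ISGF3, rose in H460 (log2 change 1.05 ± 0.11, adjusted p = 3.67e-06). Its change was -0.11 in RKO and 0.52 in A549, and RKO minus H460 was -1.12 ± 0.36 (SE, adjusted p = 0.0293). IRF1 changed by -0.18, -0.03 and 0.06 in RKO, A549 and H460 and was called in none. Of the 8 kinases and other factors, 1 rose in RKO (TYK2), and in H460 JAK2 and STAT3 rose while 2 genes fell, among them IRF5. These were 12.5% in RKO, against 18.8% of all genes, and 25% each in H460, against 24.6% and 27.3%. STAT3 changed by 1.17 ± 0.12 (SE, adjusted p = 2.54e-06) and IRF5 by -1.37 ± 0.18 (SE, adjusted p = 3.3e-05).

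Of the 3 RNA sensors, 1 fell, in H460, where 27.3% of all genes tested did. IFIH1 (MDA5), a cytoplasmic receptor for long double-stranded RNA, fell in H460 from 1.28 and 1.64 to 0.886 and 0.522 CPM, a log2 change of -1.10 ± 0.35 (SE, adjusted p = 0.0132). Without H460 hypoxia replicate 2 this change was -0.72 (adjusted p = 0.142). DDX58, its relative for short RNA ends, and the helicase DDX60 were called in no line. In A549 each sensor was higher in both hypoxia libraries than in both normoxia libraries, by log2 changes of 0.32, 0.19 and 0.26, and none passed the test. Of all genes tested in A549, 26.0% had hypoxia libraries higher without overlap. Of the 11 other sensors and adaptors, 8 were tested in RKO and 10 in each lung line. None was called higher, 1 fell in RKO, where 15.1% of all genes did, and 4 fell in H460, where 27.3% did. The DNA sensor IFI16 fell in RKO (log2 change -1.11 ± 0.17, adjusted p = 0.000862). In H460 TMEM173, which encodes the adaptor STING, fell from 8.72 and 9.06 to 2.15 and 2.57 CPM (log2 change -1.92 ± 0.18, adjusted p = 1.97e-06), and IKBKE, MB21D1 and TLR3 also fell. TMEM173 was nearly absent from RKO, at 0.0246 to 0.0797 CPM.

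The IFIT genes bind viral RNA that lacks host caps, and they did not move together. IFIT5 fell in RKO, from 36.8 and 30.0 to 16.0 and 24.2 CPM, with no overlap between conditions and a change of -0.79 ± 0.22 (SE, adjusted p = 0.0171). This call was lost without RKO normoxia replicate 1 (-0.63, adjusted p = 0.112) or without RKO hypoxia replicate 1 (-0.47, fold under 1.5). IFIT2 rose in RKO, from 1.22 and 0.728 to 1.82 and 2.26 CPM (log2 change 1.01 ± 0.38, adjusted p = 0.0585), a call lost without RKO normoxia replicate 2 (0.68, adjusted p = 0.346) or hypoxia replicate 2 (0.85, adjusted p = 0.135) and with DESeq2 (adjusted p = 0.123). IFIT1 rose in H460 (log2 change 0.98 ± 0.26, adjusted p = 0.00437) at 1.52 and 1.26 CPM in normoxia. In RKO, IFIT1 and IFIT3 had log2 changes of 0.87 and 0.87 that did not pass the edgeR test (adjusted p = 0.134 and 0.129). Both were called in the fit of all 12 libraries (0.0925 and 0.0671) and without the filter on low counts (0.0765 and 0.0612). IFIT3 had 2.22 and 5.94 CPM in the 2 RKO hypoxia libraries, so replicate 2 was well above replicate 1.

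The OAS enzymes split in H460. OAS1 had 150.3 and 145 CPM in normoxia and 277 and 258 CPM in hypoxia there, a log2 rise of 0.84 ± 0.09 (SE, adjusted p = 3.87e-06) without overlap. OAS3 had 99.4 and 94.6 CPM in normoxia and 44.5 and 47.7 CPM in hypoxia, a log2 change of -1.09 ± 0.09 (SE, adjusted p = 6e-07), again without overlap. OAS2, at about 1 to 2 CPM, also fell (log2 change -0.66 ± 0.29, adjusted p = 0.0605), but that call was lost without H460 normoxia replicate 1 (adjusted p = 0.129), normoxia replicate 2 (0.102) or hypoxia replicate 1 (0.404), and with DESeq2 (0.199) or the fit of all 12 libraries (0.161). In A549, OAS1, OAS2 and OAS3 had changes of 0.15, 0.36 and 0.11, and OASL of -0.60 (adjusted p = 0.301). In RKO, OAS3 changed by -0.28 and was not called. The H460 change of OAS1 stood above that of A549 by 0.69 on the log2 scale (adjusted p = 0.025), and the OAS3 change in A549 stood above that in H460 by 1.20 ± 0.25 (SE, adjusted p = 0.00382).

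Of the 8 antiviral effectors, 2 of 6 tested rose in RKO, and in H460 1 rose and 2 fell. These were 33.3% in RKO, against 18.8% of all genes, and 12.5% and 25% in H460, against 24.6% and 27.3%. ISG20, an exonuclease that degrades single-stranded RNA, had 12.9 and 8.38 CPM in normoxia and 35.3 and 30.0 CPM in hypoxia in RKO. In H460 it had 61.1 and 54.5 CPM in normoxia and 160.0 and 133 CPM in hypoxia. These were rises of 2.93-fold and 2.50-fold, or 1.55 ± 0.23 (SE, adjusted p = 0.000672) and 1.32 ± 0.11 (SE, adjusted p = 4.5e-07) on the log2 scale. ISG20 had 8.93 and 10.3 CPM in normoxia and 11.6 and 15.2 CPM in hypoxia in A549, where the conditions did not overlap either but the change was 0.46 ± 0.24 (SE, adjusted p = 0.382). RKO minus A549 was 1.14 ± 0.29 (SE, adjusted p = 0.0305) and RKO minus H460 was 0.27 ± 0.28 (SE, adjusted p = 0.513). Of the 4 promoters shown above, only that of ISG20 held ACGTG. These letters were found in 16.7% of the 30 windows searched and in 21.6% of all windows, and their part in the rise was not tested.

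IFI6 rose in RKO, from 1.22 and 0.878 to 3.47 and 4.64 CPM, a change of 1.89 ± 0.35 (SE, adjusted p = 0.00206) and the highest of the genes in that line. In A549 it had 8.72 and 5.62 CPM in normoxia and 9.55 and 8.0 CPM in hypoxia, and in H460 19.0 and 14.8 CPM in normoxia and 18.2 and 19.5 CPM in hypoxia. The conditions overlapped in both lung lines, and the RKO change exceeded that of H460 by 1.79 ± 0.38 (SE, adjusted p = 0.00346). In hypoxia RKO was still below the normoxic mean of A549 (7.17 ± 2.19 CPM).

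MX1 and IFI35 fell in H460. MX1 went from 1.67 and 1.49 to 0.506 and 0.243 CPM, a fall of 4.34-fold (log2 change -2.12 ± 0.38, adjusted p = 0.000361) on 47 and 51 counts in normoxia and 12 and 7 in hypoxia. RKO, with far more MX1, had 31.1 and 33.2 CPM in normoxia and 26.7 and 36.4 CPM in hypoxia and did not change beyond the threshold (-0.08). IFI35, which binds NMI and modulates innate signalling, had 41.3 and 34.4 CPM in normoxia and 13.5 and 12.1 CPM in hypoxia in H460, a fall of 2.99-fold (log2 change -1.58 ± 0.12, adjusted p = 3.93e-07). In A549 it had 37.2 and 40.1 CPM in normoxia and 31.1 and 25.7 CPM in hypoxia, with a change of -0.46 ± 0.20 (SE, adjusted p = 0.293), and in RKO its change was 0.33. Its hypoxia change differed between RKO and H460 by 1.95 ± 0.24 (SE, adjusted p = 9.63e-05). BST2, IFI27, IFI44 and IFI44L were called in no line. BST2 had 249.8 and 288 CPM in normoxia and 216 and 265 CPM in hypoxia in RKO, overlapping between conditions, and did not exceed 2.24 CPM in the lung lines.

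**Figure D3:**
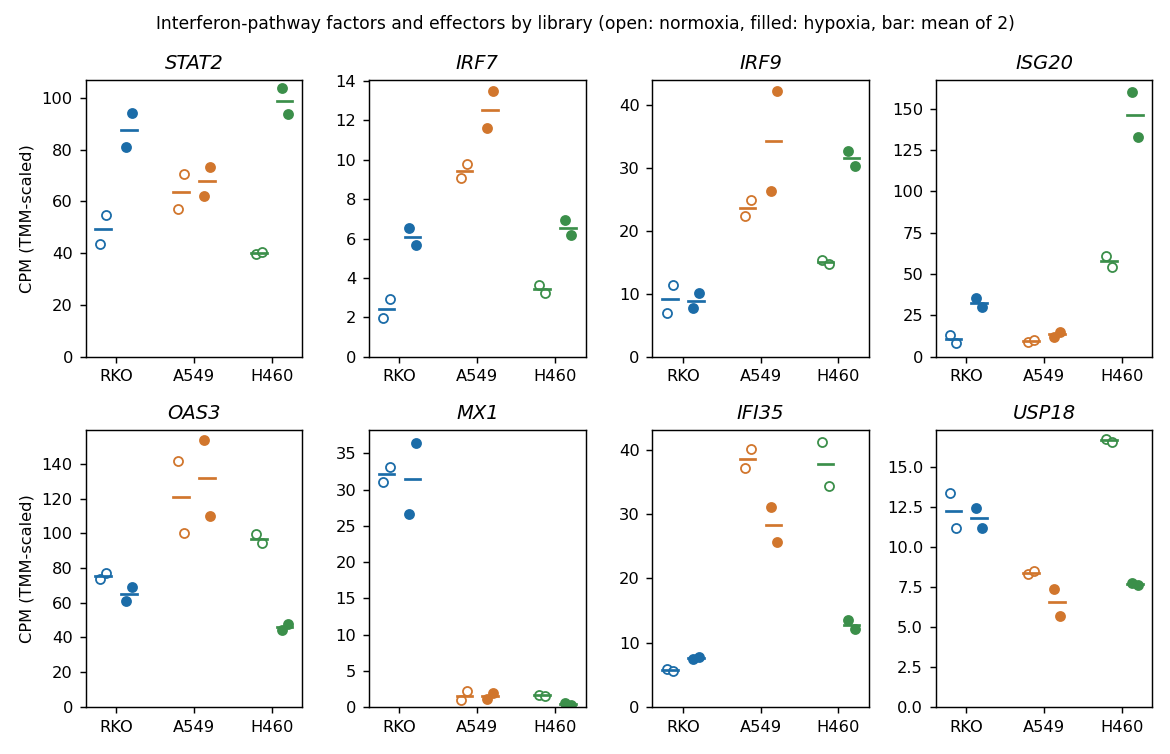
TMM-scaled CPM (y axis, from 0) of 4 genes that were called higher and 4 that were called lower in H460 hypoxia, by line, with open points for normoxia, filled points for hypoxia and a bar at the mean of the 2 libraries. STAT2 and ISG20 are higher in hypoxia in RKO and H460, while OAS3, IFI35 and USP18 are lower in H460 and MX1 is abundant in RKO only.

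Among the IFITM genes, IFITM2 rose in H460, with 88.3 and 73.5 CPM in normoxia and 140.2 and 128 CPM in hypoxia and a change of 0.71 ± 0.10 (SE, adjusted p = 5.53e-05). The call was lost without H460 normoxia replicate 2 (0.55, fold under 1.5). In A549 IFITM2 had 55.6 and 60.8 CPM in normoxia and 73.5 and 96.2 CPM in hypoxia, with no overlap and a change of 0.53 ± 0.19 (SE, adjusted p = 0.221). In RKO it had 132 and 136 CPM in normoxia and 135 and 124 CPM in hypoxia and overlapped. IFITM3, more abundant in H460, had 274 and 237 CPM in normoxia and 277 and 264 CPM in hypoxia there and was not called. In RKO it had 73.5 and 81.8 CPM in normoxia and 57.4 and 60.5 CPM in hypoxia, a change of -0.46 ± 0.15 (SE, adjusted p = 0.0344) whose fold was under 1.5. In A549 it had 53.8 and 52.6 CPM in normoxia and 55.6 and 72.3 CPM in hypoxia, a change of 0.25 ± 0.19 (SE, adjusted p = 0.548).

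In the group of the ISG15 system with PARP9 and DTX3L, no gene was called in RKO or A549. In H460, 3 of 5 fell, where 27.3% of all genes did, and ISG15 itself was not among them. USP18, which removes ISG15 from proteins and restrains the receptor, went from 16.7 and 16.6 to 7.72 and 7.61 CPM (2.19-fold lower, adjusted p = 8.43e-06). HERC6 went from 3.16 and 3.72 to 1.56 and 1.43 CPM (log2 change -1.22 ± 0.24, adjusted p = 0.000652), and PARP9 from 13.8 and 13.3 to 8.99 and 8.87 CPM (log2 change -0.62 ± 0.13, adjusted p = 0.00111). DTX3L, the E3 ligase partner of PARP9 and its neighbour on chromosome 3 on the opposite strand, changed by -0.19, and ISG15 itself by -0.33 (adjusted p = 0.231). USP18 and HERC6 differed in their change between RKO and H460, by 1.06 ± 0.27 (SE, adjusted p = 0.00991) and 1.29 ± 0.32 (SE, adjusted p = 0.00779).

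The MHC class I chains rose in H460 (3 of 3, where 24.6% of all genes rose), and HLA-B rose in RKO too. Summed, the 3 chains stood at 483 and 530 CPM in normoxic and 795 and 813 CPM in hypoxic RKO libraries. In A549 the sums were 143 and 135 against 166 and 214 CPM, and in H460 143 and 104 against 385 and 300.3 CPM. In each line every hypoxia library was above every normoxia library for HLA-B, HLA-C and HLA-E, as it was for 38.9% of all genes tested in RKO, 26.0% in A549 and 42.4% in H460. HLA-B, which lies at chr6:31321652-31324956 of GRCh37 on the minus strand, had 29.3 and 27.7 CPM in normoxia and 67.5 and 66.8 CPM in hypoxia in RKO. H460 had 27.7 and 18.2 CPM in normoxia and 101 and 72.1 CPM in hypoxia, and A549 had 13.1 and 12.2 CPM in normoxia and 19.8 and 23.2 CPM in hypoxia. The rises were 2.26-fold in RKO (log2 change 1.18 ± 0.16, adjusted p = 0.000398) and 3.74-fold in H460 (log2 change 1.90 ± 0.19, adjusted p = 2.29e-06). In A549 the estimate was 0.75 ± 0.22 (SE, adjusted p = 0.15), past the fold threshold but not past the adjusted p. It was called there with DESeq2 (adjusted p = 0.0527), in the fit of all 12 libraries (0.0418) and without A549 hypoxia replicate 1 (0.0775). The change in H460 exceeded that in A549 by 1.15 on the log2 scale (adjusted p = 0.00864).

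HLA-C had 338 and 375 CPM in normoxia and 527 and 566 CPM in hypoxia in RKO, a change of 0.56 ± 0.16 (SE, adjusted p = 0.0175) and so just under the fold threshold. In H460 it had 34.6 and 18.5 CPM in normoxia and 64.9 and 48.9 CPM in hypoxia, a rise of 1.09 ± 0.22 (SE, adjusted p = 0.000882). A549 had 19.9 and 18.5 CPM in normoxia and 25.4 and 30.9 CPM in hypoxia, a change of 0.53 ± 0.21 (SE, adjusted p = 0.245). HLA-E, a nonclassical chain recognised by NK cell receptors, had 80.9 and 67.7 CPM in normoxia and 219 and 179 CPM in hypoxia in H460, a rise of 2.65-fold (log2 change 1.40 ± 0.12, adjusted p = 5.7e-07). In RKO it had 116 and 128 CPM in normoxia and 199.7 and 181 CPM in hypoxia, a change of 0.58 ± 0.15 (SE, adjusted p = 0.0121), again just under the threshold. In A549 it had 110.5 and 104 CPM in normoxia and 121 and 159.8 CPM in hypoxia, a change of 0.37 ± 0.19 (SE, adjusted p = 0.358). HLA-C and HLA-E were called in RKO in the fit of all 12 libraries (0.62 and 0.64 on the log2 scale) and with library size alone (0.64 and 0.66).

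**Figure D4:**
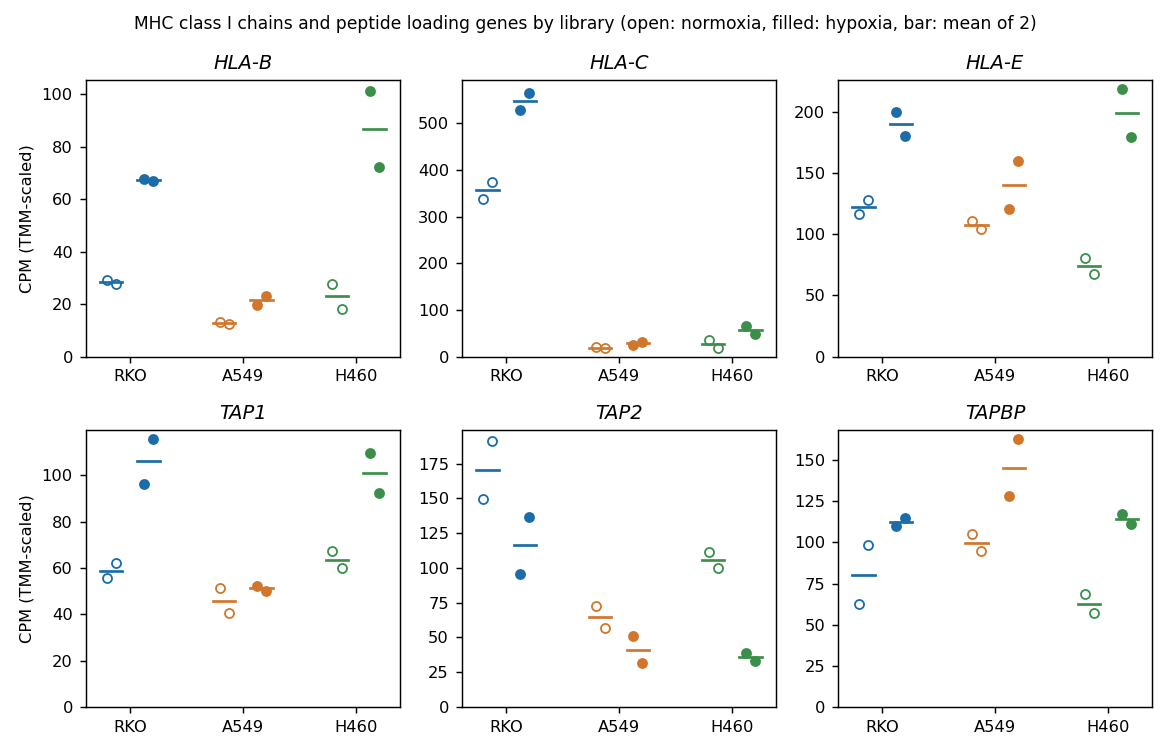
TMM-scaled CPM (y axis, from 0) of the MHC class I chains and the peptide loading genes by line, with open points for normoxia, filled points for hypoxia and a bar at the mean of the 2 libraries. Hypoxia libraries lie above normoxia libraries for HLA-B, HLA-C, HLA-E and TAPBP in each line, and below them for TAP2.

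The subunits of the peptide transporter had changes of opposite sign. TAP1, which with TAP2 pumps peptides into the endoplasmic reticulum, had 55.5 and 61.9 CPM in normoxia and 96.4 and 116 CPM in hypoxia in RKO. In H460 it had 67.3 and 59.9 CPM in normoxia and 109.5 and 92.4 CPM in hypoxia. These were log2 rises of 0.79 ± 0.16 (SE, adjusted p = 0.00347) and 0.65 ± 0.10 (SE, adjusted p = 0.000124). The H460 call was lost without H460 normoxia replicate 2 (0.53) or hypoxia replicate 1 (0.55), both under the fold threshold. In A549 TAP1 had 51.2 and 40.5 CPM in normoxia and 52.1 and 50.1 CPM in hypoxia, overlapping, with a change of 0.14 ± 0.19 (SE, adjusted p = 0.759).

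TAP2, at chr6:32793192-32806516 of GRCh37 on the minus strand, had 149 and 191 CPM in normoxia and 96.0 and 137 CPM in hypoxia in RKO. H460 had 112 and 100.2 CPM in normoxia and 38.6 and 33.2 CPM in hypoxia, and A549 had 72.3 and 56.5 CPM in normoxia and 50.7 and 31.4 CPM in hypoxia. Hypoxia libraries lay below normoxia libraries in each line. TAP2 fell by 1.52-fold in RKO (log2 change -0.61 ± 0.20, adjusted p = 0.034) and 2.99-fold in H460 (log2 change -1.58 ± 0.10, adjusted p = 8.5e-08). In A549 the change was -0.66 ± 0.25 (SE, adjusted p = 0.245). The RKO call was lost without RKO normoxia replicate 2 (-0.42, adjusted p = 0.162) or hypoxia replicate 1 (-0.33, adjusted p = 0.265). It was also lost in the fit of all 12 libraries (-0.55) and with library size alone (-0.52), both under the fold threshold, and with limma on log2(RPKM + 1) and log2(RPKM + 0.1) (adjusted p = 0.167 and 0.174). Without A549 hypoxia replicate 1, the A549 change was -1.07 and was called (adjusted p = 0.00614). RKO minus H460 was 1.01 ± 0.32 (SE, adjusted p = 0.0278). TAPBP, or tapasin, which bridges TAP and the class I chain, rose in H460 from 68.4 and 57.3 to 117 and 111 CPM (log2 change 0.84 ± 0.10, adjusted p = 1.15e-05). It had changes of 0.42 in RKO and 0.53 in A549 that were not called, without overlap of conditions.

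Other genes of the MHC class I route were read from a list of 19. In RKO 4 of 18 tested rose and 3 fell (22.2% and 16.7%, against 18.8% and 15.1% of all genes). In A549 none was called, and in H460 3 rose and 4 fell (16.7% and 22.2%, against 24.6% and 27.3%). B2M, the light chain of every class I molecule, was not called in any line, with changes of 0.43, 0.15 and 0.30 in RKO, A549 and H460. PSMB10, an immunoproteasome subunit, fell in H460 (log2 change -1.28 ± 0.11, adjusted p = 8.59e-07). RFX5 and RFXAP, subunits of the RFX complex that binds MHC promoters, fell there as well (-1.57 and -1.81). Of 7 MHC class II genes, 5 did not exceed 0.295 CPM in any library, and HLA-DMA rose in H460 (log2 change 0.68 ± 0.24, adjusted p = 0.0246).

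Of 31 other interferon-stimulated genes, 22 were tested in RKO and 24 in each lung line. In RKO 5 rose and 3 fell (22.7% and 13.6%, against 18.8% and 15.1% of all genes), in A549 none was called, and in H460 8 rose and 8 fell (33.3% each, against 24.6% and 27.3%). TRIM22 rose in RKO from 0.239 and 0.276 to 2.41 and 2.26 CPM (log2 change 3.11 ± 0.41, adjusted p = 0.000386), and TRIM5, a retroviral restriction factor, rose in RKO and H460 (1.16 and 1.37). GBP2 rose in H460 (log2 change 2.50 ± 0.43, adjusted p = 0.000228) and TRIM14 fell in RKO and H460 (-0.74 and -1.35). CXCL10, RTP4 and RSAD2, which were named after their values were seen, stood between 0 and 0.119 CPM in every library. Other interferon-stimulated genes stood far above this, such as MX1 in normoxic RKO (mean 32.1 CPM) and OAS1 in normoxic H460 (148 CPM). Of 6 negative regulators of the pathway, TRIM27 fell in RKO (log2 change -0.70 ± 0.18, adjusted p = 0.0121) and no other was called. This was 16.7% in RKO, against 15.1% of all genes. Over the 96 other pathway genes, 11 of 68 tested rose and 8 fell in RKO (16.2% and 11.8%, against 18.8% and 15.1% of all genes). In H460 16 of 73 rose and 19 fell (21.9% and 26.0%, against 24.6% and 27.3%). In A549 0 of 74 were called in the unpaired edgeR fit, with 11 at an unadjusted p under 0.05 and 1 called with DESeq2.

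In A549 no gene was called by edgeR in the main, unpaired fit of its 4 libraries. Of its 36 tested genes 21 had a positive and 15 a negative log2 change, between -0.66 and 0.75. Unadjusted p was under 0.05 for 7 of them with edgeR, while 16.6% of all genes in A549 had such a p. DESeq2 called 1 gene (HLA-B) higher, against 4.27% of all genes. Leaving out A549 hypoxia replicate 1, the library with the weaker NDRG1 level, gave 4 genes higher (HLA-B, IFITM2, IRF9 and TAPBP) and 1 lower (TAP2). In that fit the shares of all genes called also went up, to 7.70% higher and 5.34% lower. The lone hypoxia library was then assumed to vary like the normoxia pair.

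The change itself was compared between lines by an interaction term in the fit of all 12 libraries. For 20 of the 37 genes (54.1%) the change differed between lines at an adjusted p under 0.1, against 48.8% of all genes. Between RKO and A549 it differed for 8 (21.6%), against 14.6% of all genes. Between RKO and H460 it differed for 15 (40.5%), against 37.6%, and between A549 and H460 for 13 (35.1%), against 36%. The count between RKO and A549 fell to 3 to 5 when RKO normoxia replicate 1 or 2, A549 normoxia replicate 2, or either hypoxia replicate of A549 or H460 was left out. That between RKO and H460 fell to 9 without RKO hypoxia replicate 2, and that between A549 and H460 to 8 without H460 hypoxia replicate 2. These comparisons share libraries and are not independent of each other. IFI35 had the lowest overall adjusted p (0.000222), with a fall in H460 and no call in RKO or A549. BST2, IFI27, DDX60, IRF1, ISG15 and HLA-C were among the 17 genes for which the overall difference did not pass (adjusted p = 0.781, 0.581, 0.625, 0.844, 0.331 and 0.308).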

How the data were processed

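Strand-specific poly(A)+ RNA-seq of RKO, A549 and H460 cells was analysed from the table of counts and RPKM that the authors deposited. The authors aligned reads to GRCh37 (hg19) with TopHat2 2.0.13, filtered low-quality mappings, marked duplicates with Picard 1.129, and made raw counts per gene with HTSeq 0.6.1, using strand. The deposited RPKM equals count over deposited gene length and library total in 100% of values (relative tolerance 1e-06), and 0 columns were left unused.

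Genes over 0.5 CPM in at least 2 libraries were tested with edgeR 4.0.16 (R 4.3.3, TMM scaling, quasi-likelihood F test, two-sided, Benjamini-Hochberg adjustment over all genes tested). Hypoxia was compared with normoxia in the 4 libraries of each line (12817 genes in RKO, 14251 in A549, 14080 in H460). Normoxic levels and interactions came from a fit of all 12 libraries (15595 genes). A call needs an adjusted p under 0.1 and a fold over 1.5, and an interaction the adjusted p alone. CPM values are scaled by the TMM factors of the 12 libraries. The fits were tested on simulated data.

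The 37 genes, the 96 other pathway genes and the marker lists were chosen with earlier results of these data known. Values in every library are given for genes called in at least 2 lines, the 3 highest and 3 lowest called fold changes of a line, the 3 highest deposited RPKM of a line and the 5 widest normoxic ranges. Up to 4 called genes are named per pathway group. TYK2, MB21D1, B2M, CXCL10, RTP4 and RSAD2 were named after their values were seen. Some genes of these lists are counted but not reported here by name. Alternatives were DESeq2 1.42.0, limma 3.58.1 on log2(RPKM + 0.1) or log2(RPKM + 1), other scalings, filters and fold thresholds, a replicate block, and leaving out each library. Totals ran from 27350424 to 41757584 counts, and intervals and floors cover counting error only.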

Additional observations from a re-analysis of the deposited data

Results flagged for a closer look

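For 20 genes the hypoxia change differed between lines by the interaction term of the edgeR fit of all 12 libraries, and for each the 2 lines that differed most are shown, as the log2 change in the first line minus that in the second. RKO minus H460 was positive for OAS2 2.49 (SE 0.82, adjusted p = 0.0346), MX1 2.08 (SE 0.58, adjusted p = 0.0157), IFI35 1.95 (SE 0.24, adjusted p = 9.63e-05), IFI6 1.79 (SE 0.38, adjusted p = 0.00346), HERC6 1.29 (SE 0.32, adjusted p = 0.00779), USP18 1.06 (SE 0.27, adjusted p = 0.00991) and TAP2 1.01 (SE 0.32, adjusted p = 0.0278). The OAS2 value rests on 4 reads in normoxic and 15 in hypoxic RKO libraries. RKO minus H460 was negative for IRF9 -1.12 (SE 0.36, adjusted p = 0.0293) and IFITM2 -0.78 (SE 0.21, adjusted p = 0.0133).

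RKO minus A549 was positive for ISG20 1.14 (SE 0.29, adjusted p = 0.0305), IRF7 0.91 (SE 0.32, adjusted p = 0.0971) and TAP1 0.70 (SE 0.22, adjusted p = 0.0666), and negative for IFITM3 -0.66 (SE 0.20, adjusted p = 0.0608). A549 minus H460 was positive for IFIH1 1.28 (SE 0.45, adjusted p = 0.0465), OAS3 1.20 (SE 0.25, adjusted p = 0.00382) and PARP9 0.77 (SE 0.25, adjusted p = 0.0339). It was negative for STAT2 -1.21 (SE 0.23, adjusted p = 0.00181), HLA-B -1.15 (SE 0.28, adjusted p = 0.00864), HLA-E -1.03 (SE 0.23, adjusted p = 0.00472) and OAS1 -0.69 (SE 0.21, adjusted p = 0.025). RKO and A549 differ in tissue, A549 and H460 in medium, and RKO and H460 in both, and neither can be told apart from the line.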

How the results depend on the processing

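None of the 37 genes called in a line changed sign under any alternative run, while genes not called with estimates near 0 did, and the balance of higher to lower calls in H460 turned with library size alone and with limma on log2(RPKM + 0.1). Over the genes tested, 1055 outcomes under settings other than left-out libraries kept their side of the threshold, 42 passed it and 43 lost it. With a fold over 2, the counts were 0 lower in RKO, 6 higher in H460 and 8 higher in RKO than H460, and for the other pathway genes 2 higher and 1 lower in RKO and 4 higher and 10 lower in H460. Without a fold threshold, 17 pathway genes were higher in RKO and 32 in H460. The fit of all 12 libraries gave 12 higher and 1 lower in RKO, 1 higher in A549 and 3 pathway genes higher in A549. In A549, 6.14% of all genes were called higher in that fit. DESeq2 gave 1 gene and 1 pathway gene higher in A549, against 4.27% of all genes. Library size alone gave 1 lower in RKO, 7 higher and 14 lower in H460, and 7 pathway genes higher in H460. With limma on log2(RPKM + 1), 1 gene was lower in RKO, 5 were higher and 5 lower in H460, and 5 pathway genes were lower in RKO and 5 higher in H460. With log2(RPKM + 0.1), 12 were higher and 1 lower in RKO, 6 higher and 14 lower in H460, and 7 pathway genes higher in H460. The deposited RPKM is scaled by library total, so both limma runs, like library size alone, carry no TMM factors. The cause of these shifts was not tested.

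Leaving out each library in turn gave, as lowest to highest, 7 to 9 higher and 0 to 2 lower in RKO, 0 to 4 and 0 to 1 in A549, and 10 to 12 and 7 to 10 in H460. For pathway genes it gave 8 to 14 and 4 to 12 in RKO, 0 to 1 and 0 to 0 in A549, and 13 to 16 and 16 to 20 in H460. Normoxic calls ran 9 to 12 and 15 to 17 for RKO against A549, 11 to 14 and 11 to 13 for RKO against H460, and 14 to 17 and 8 to 11 for A549 against H460. Interactions ran 14 to 20 over the 3 lines, and 3 to 7, 9 to 15 and 8 to 14 for those pairs in turn. The low counts without RKO hypoxia replicate 1 were 0 members and 4 pathway genes lower in RKO.

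Libraries with the same replicate number deviated together (correlation 0.339 in RKO, 0.343 in A549 and 0.115 in H460), but each line has only 2 pairs and the labels give the numbers no shared origin, so the main fit is unpaired. With the replicate block, 1 gene (HLA-B) was higher and 2 (OASL, TAP2) were lower in A549, and 5 pathway genes were higher and 1 lower there. Of all genes in A549, 8.34% were then called higher and 5.07% lower. In RKO the block gave 9 higher, with IFIT1 and IFIT3 added, and 2 lower, against 19.8% and 16.0% of all genes. With 27350424 to 41757584 counts, 3 reads over a group set the floor for genes at 0.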
